A study of Mus musculus with 2 samples.

Results

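The Mir193 and Mir365 genes of the mouse lie in 2 paralogous clusters, each with 1 gene of either family, and 4 genes were taken from the 2202 miRNA genes in the deposited tables. They are Mir193a, whose older name is Mir193, with Mir365-2 on chromosome 11, and Mir193b with Mir365-1 on chromosome 16. They were chosen by name for their reported anti-myogenic action, and all 4 identifiers matched GENCODE release M21. MicroRNAs had been sequenced from 1 group of 2 libraries of C2C12 myotubes. C2C12 is a mouse myoblast line, started from crushed thigh muscle of C3H mice, that fuses into multinucleated myotubes in culture. Both libraries came from cells of this 1 line after 72 h of differentiation, from separate biosamples labelled biological replicates 1 and 2. The labels name no treatment and no undifferentiated control, so nothing here measures a change during differentiation. Values were compared between the genes and between the 2 libraries.

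A microRNA gene is transcribed as a hairpin, from which Drosha and Dicer cut 2 mature arms, called 5p and 3p. An arm bound to Argonaute recognises messenger RNAs mainly through its seed, bases 2 to 8 from the 5′ end. In mouse brown fat precursors miR-193b and miR-365 have been reported to favour brown fat formation and to hold back muscle genes, with Runx1t1 named as a target of miR-193b. Mice without Mir193b and Mir365-1 have been reported to form brown fat nonetheless. In other cells miR-193 and miR-365 are best known as growth-restraining miRNAs, with cyclin D1 among the reported targets of both. None of these targets was measured here.

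The mature sequences are shown first because the 2 families differ in how well their paralogs can be told apart by reads. They are RefSeq sequences on GRCm38.p6, the assembly also called mm10, and capitals mark the seed. The 3p arms of the Mir193 genes are
miR-193a-3p (Mir193a): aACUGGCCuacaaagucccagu
miR-193b-3p (Mir193b): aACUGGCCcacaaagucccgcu
The 5p arms of the Mir193 genes are
miR-193a-5p (Mir193a): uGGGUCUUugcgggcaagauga
miR-193b-5p (Mir193b): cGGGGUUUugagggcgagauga
The arms of the Mir365 genes are
miR-365-3p (Mir365-1 and Mir365-2): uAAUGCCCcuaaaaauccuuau
miR-365-1-5p (Mir365-1): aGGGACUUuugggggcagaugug
miR-365-2-5p (Mir365-2): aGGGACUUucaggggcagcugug

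The 2 Mir193 3p arms shared their seed, ACUGGCC, and were identical at 19 of 22 positions. Counted from 1 at the 5′ end, with the Mir193a base first, they differed by U9C, A20G and G21C. Their 5p arms were identical at 17 of 22 positions and had different seeds. No other mature miRNA in the RefSeq table had the seed of an arm of either family. The 2 Mir365 5p arms shared the seed GGGACUU and were identical at 20 of 23 positions, differing by C10U, A11G and C19A with the Mir365-2 base first. The Mir365 3p arm was the same 22 bases in both genes, and among GENCODE M21 transcripts it occurred in these 2 hairpins and in no other transcript. Each of the other 6 arms occurred in its own hairpin alone.

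How far the Mir365 hairpins coincide around the 3p arm decides which reads can be given to 1 gene. The annotated hairpins are printed with their longest shared run in capitals.
Mir365-2: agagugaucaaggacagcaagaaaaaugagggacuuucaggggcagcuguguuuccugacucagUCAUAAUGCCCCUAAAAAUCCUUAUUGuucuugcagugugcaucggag
Mir365-1: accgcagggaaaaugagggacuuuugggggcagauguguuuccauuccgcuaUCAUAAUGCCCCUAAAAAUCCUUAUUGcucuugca
The shared run was 27 bases long and reached 3 bases before and 2 bases after the 3p arm. A read that lies inside this run matches both genes equally well. The deposited tables count reads that mapped to several places in a line of their own with no gene attached, which held 22.01% of the reads of replicate 1 and 17.9% of those of replicate 2. The Mir365 values below therefore leave out any miR-365-3p read counted there, are uncertain as levels of the genes, and are no measure of mature miR-365-3p. The Mir193a and Mir193b hairpins had no shared run longer than 10 bases with each other. The longest run either shared with any of the other 1004 RefSeq hairpins was 14 bases. Judged by these hairpins, the limit does not touch them in the same way, but the whole genome was not searched.

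Both clusters are annotated on the plus strand with the Mir193 gene first. On mm10, Mir193a (ENSMUSG00000065395.1) occupies chromosome 11 from 79711969 to 79712034 and Mir365-2 (ENSMUSG00000065489.1) from 79726400 to 79726511. The gap between them is 14365 bases, and GENCODE M21 places neither inside another gene. Mir193b (ENSMUSG00000076972.2) occupies chromosome 16 from 13449523 to 13449601 and Mir365-1 (ENSMUSG00000065449.1) from 13453840 to 13453926, with a gap of 4238 bases. Both lie in intronic sequence of Gm15738, an antisense transcript on the minus strand, and inside the span that RefSeq gives the long non-coding RNA gene Gm32817. The nearest protein-coding gene upstream is Rab11fip4, which encodes a Rab11 effector, on chromosome 11, and Mrtfb, which encodes a coactivator of serum response factor, on chromosome 16.

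**Figure D1:**
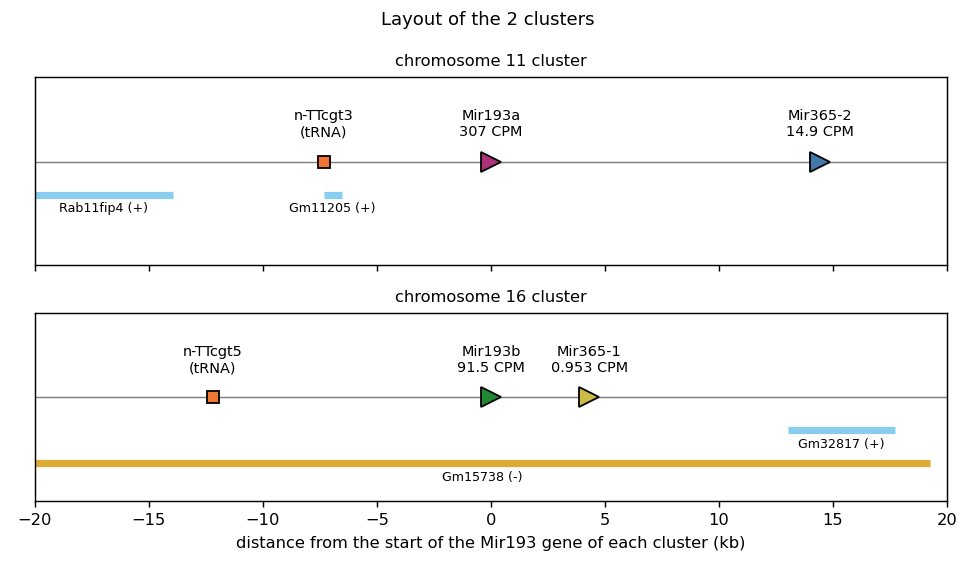
Layout of the chromosome 11 cluster (top) and the chromosome 16 cluster (bottom), with distance in kb from the start of each Mir193 gene on the x axis. Triangles are miRNA genes with their mean CPM over 2 libraries, squares are the nearest tRNA genes upstream in RefSeq, and bars are other GENCODE M21 genes with their strand. In both clusters the Mir193 gene comes first and has the higher level, 307 against 14.9 CPM and 91.5 against 0.953 CPM.

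The libraries held 7581366 and 9865298 reads on the sense strand of miRNA genes in replicates 1 and 2, the totals to which CPM (counts-per-million) refer. A count of 3 corresponded to 0.396 and 0.304 CPM. Intervals below are 95% exact Clopper-Pearson intervals, which cover the counting error of reads in a library, and reads are not independent molecules. Of 7 muscle marker genes 4 were detected, that is at 2 CPM or more in both libraries, and the muscle markers, led by Mir206, took 35.5% and 42.8% of miRNA reads. Those not detected were all Mir1a or Mir133a genes. These have identical copies, so their values are uncertain for the reason given for Mir365 and do not measure the mature miRNAs. Of 13 markers of blood, liver, neurons, endothelium and epithelium, 3 were detected and 5 had no read in either library. Together the 13 came to 324 and 227 CPM.

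Mir193a was the most abundant of the 4 genes. It had 1745 reads, or 230 CPM (interval 219 to 241), in replicate 1 and 3786 reads, or 384 CPM (372 to 396), in replicate 2. Its mean was 307 ± 109 CPM (SD, n = 2), which ranked 100 among 2202 genes. Mir193b had 671 reads, or 88.5 CPM (81.9 to 95.5), in replicate 1 and 932 reads, or 94.5 CPM (88.5 to 101), in replicate 2. Its mean of 91.5 ± 4.22 CPM (SD, n = 2) ranked 137 and lay close to 90.3 CPM, the median over the 274 detected genes. The lower Mir193a library was above the higher Mir193b library, so these paralogs were separated by more than the library spread.

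The Mir365 genes had far fewer assigned reads. Mir365-2 had 131 reads, or 17.3 CPM (14.4 to 20.5), in replicate 1 and 123 reads, or 12.5 CPM (10.4 to 14.9), in replicate 2, with a mean of 14.9 ± 3.40 CPM (SD, n = 2) and rank 191. Mir365-1 had 6 reads, or 0.791 CPM (0.290 to 1.72), in replicate 1 and 11 reads, or 1.12 CPM (0.557 to 2.00), in replicate 2. Its mean was 0.953 ± 0.229 CPM (SD, n = 2) at rank 357, and it was the only one of the 4 under 2 CPM in both libraries. The order Mir193a, Mir193b, Mir365-2, Mir365-1 was the same in both libraries, with no overlap between neighbours. For the Mir365 genes it is an order of assigned reads.

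**Figure D2:**
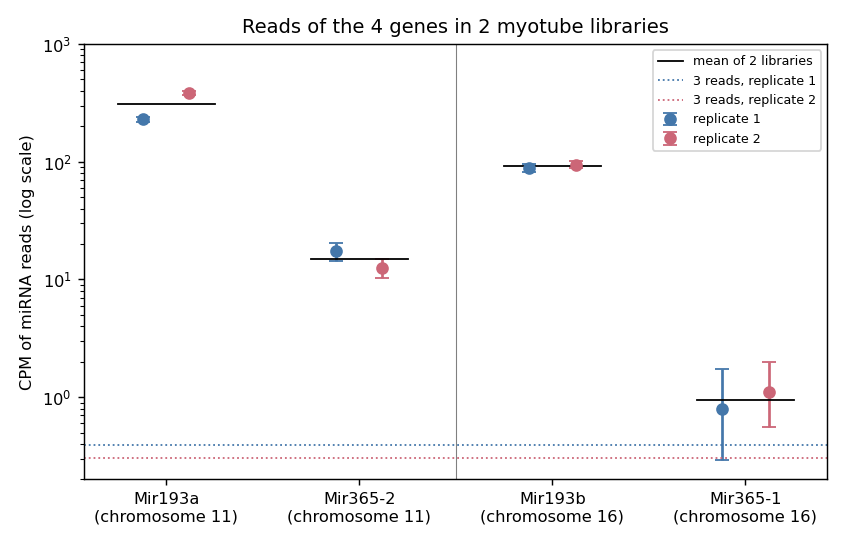
CPM of miRNA reads on a log axis for the 4 genes, ordered by cluster, with 1 point per library, bars for 95% exact Clopper-Pearson intervals and a black line for the mean. Dotted lines mark the CPM of 3 reads in each library. Mir193a lies between 230 and 384 CPM and Mir365-1 near 1 CPM, where the interval of replicate 1 reaches below its dotted line.

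Of the 4 genes 3 were detected, against 12.4% of all 2202 annotated genes, most of which had no read. Among the 1018 genes with a mature sequence in RefSeq, 24.1% were detected. Together the 4 genes took 0.0337% of miRNA reads in replicate 1 (interval 0.0324% to 0.0350%) and 0.0492% in replicate 2 (0.0478% to 0.0506%). The chromosome 11 cluster summed to 322 ± 105 CPM and the chromosome 16 cluster to 92.4 ± 4.45 CPM (SD, n = 2). The lower library of the first, 247 CPM, was above the higher library of the second, 95.6 CPM.

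Within both clusters the Mir193 gene had many more assigned reads than its Mir365 partner. Mir193b exceeded Mir365-1 by 112-fold in replicate 1 (interval 51.1 to 306) and 84.7-fold in replicate 2 (47.1 to 170). On the log2 scale, with 0.5 reads added, the ratio was 6.52 ± 0.25 (SD, n = 2). Mir193a exceeded Mir365-2 by 13.3-fold in replicate 1 (11.1 to 16.03) and 30.8-fold in replicate 2 (25.7 to 37.1), a log2 ratio of 4.33 ± 0.85 (SD, n = 2). These ratios compare assigned reads, and miR-365-3p reads that mapped to both Mir365 genes are missing from their lower side.

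Between paralogs, the chromosome 11 copy was the higher in both families. Mir193a exceeded Mir193b by 2.60-fold in replicate 1 (2.38 to 2.85) and 4.06-fold in replicate 2 (3.78 to 4.37), a log2 ratio of 1.70 ± 0.46 (SD, n = 2). Put as a share, Mir193b gave 27.8% of Mir193 reads in replicate 1 (26.0% to 29.6%) and 19.8% in replicate 2 (18.6% to 20.9%), and the intervals did not overlap. Mir365-2 exceeded Mir365-1 by 21.8-fold in replicate 1 (9.77 to 60.6) and 11.2-fold in replicate 2 (6.04 to 23.0), a log2 ratio of 3.88 ± 0.65 (SD, n = 2). Their intervals overlapped. This last ratio rests on 6 and 11 reads of Mir365-1. The ratios were not tested, since the smallest two-sided p of an exact permutation test with 2 libraries is 0.5.

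The Mir365 genes were set beside other genes that share 1 of 2 mature arms. RefSeq held 23 gene pairs of the tables built this way, with 1 arm identical between the 2 genes and 1 arm distinct, and 20 of these pairs had reads in both genes. By summed CPM the Mir365 pair, at 15.8 CPM, ranked 17 of 23, under the median of 71.4 CPM. The higher gene had 15.6 times the mean CPM of the lower one in the Mir365 pair, and the median of this ratio over the 20 pairs was 13.1. An uneven split of assigned reads was thus usual among such pairs, and the Mir365 ratio was near the middle of them.

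Among the 4 genes the libraries differed most at Mir193a. It was 1.70-fold higher in replicate 2, a log2 difference of 0.77 (interval 0.69 to 0.85), with an adjusted p of 5.41e-79 by the exact two-sided binomial test, adjusted by Benjamini-Hochberg over the 415 genes that had at least 10 reads. Its cluster partner Mir365-2 went the other way. It was 1.36-fold higher in replicate 1, a log2 difference of -0.44 (-0.81 to -0.07), with an adjusted p of 0.030 by the same exact test. That call is lost, at an adjusted p of 0.0511, when every one of the 708 genes with a read is tested. The share of Mir365-2 in the reads of its cluster was 6.98% in replicate 1 (5.87% to 8.23%) and 3.15% in replicate 2 (2.62% to 3.74%). These intervals did not overlap, although the difference in share was not itself tested.

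The chromosome 16 genes did not pass the test. Mir193b differed by a log2 of 0.12 (-0.02 to 0.27), with an adjusted p of 0.148 by the exact binomial test. Mir365-1 differed by 0.52 (-1.04 to 2.24), with an adjusted p of 0.715 by the exact binomial test. With 6 and 11 reads this wide interval holds differences in both directions, and only a large one could have passed. So 2 of the 4 genes differed, against 55.7% of the 415 genes tested. The 1 gene higher in replicate 2 stands beside 25.3% of all genes tested, and the 1 higher in replicate 1 beside 30.4%. These counts are near the background.

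The test compares these 2 libraries and counting error alone, not conditions. Over the 274 detected genes the median absolute log2 difference was 0.52, and 21.9% were 2-fold or more apart. The Mir193a difference was larger than that of 64.6% of detected genes, the Mir365-2 difference larger than that of 43.4%, and the Mir193b difference larger than that of 12.0%. The biological coefficient of variation estimated by edgeR over detected genes was 0.435. Differences as large as those of these 3 genes were thus common between the libraries. Markers of other cell types also moved between them. Mir126a, an endothelial miRNA, was at 217 CPM in replicate 1 and 42.9 CPM in replicate 2, and Mir142, a blood-cell miRNA, was at 89.0 and 178 CPM. Another blood-cell marker, Mir451a, went the other way, at 11.9 and 3.65 CPM. The remaining one, Mir223, had 2 reads and 1 read, too few to be tested or to give a direction. Over the 13 markers 4 passed the test, of which 3 were higher in replicate 1, and the median log2 difference of the 6 tested was -1.51. Their part in the Mir193a and Mir365-2 differences was not tested.

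**Figure D3:**
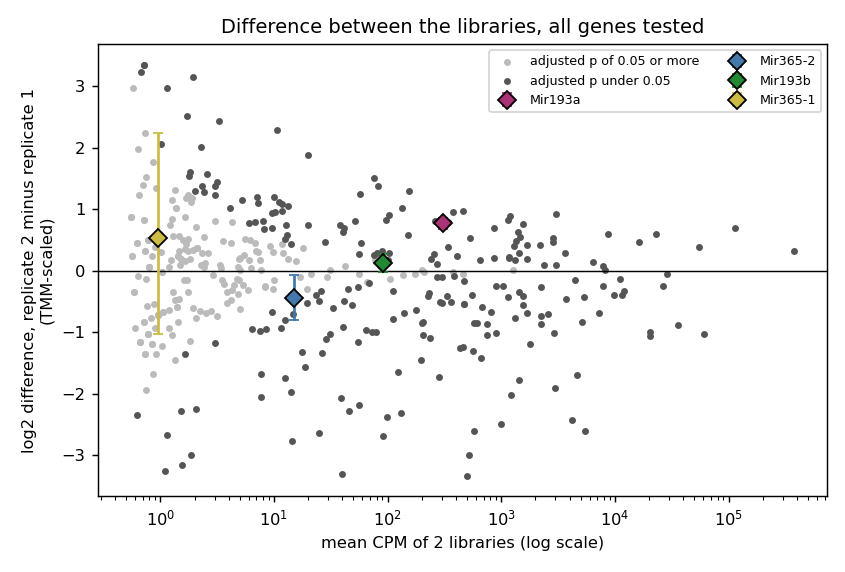
Log2 difference between the libraries, replicate 2 minus replicate 1, against mean CPM on a log axis, for the tested genes with reads in both libraries. Dark points passed the exact binomial test, diamonds are the 4 genes and bars are 95% intervals. Mir193a at 0.77 and Mir365-2 at -0.44 sit on opposite sides of 0 within the cloud of other genes.

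Reads at the 4 genes lay on the genes' own strand. Mir365-1, Mir365-2 and Mir193b had no read on the opposite strand in either library. Mir193a had 2 opposite-strand reads in replicate 1 and 6 in replicate 2, or 0.114% and 0.158% of its reads, and no gene is annotated on that strand. Of 258 detected genes without a miRNA gene opposite them, 25 had such a read.

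The genes nearest to each member in level over the 2 libraries were found by the distance between log2(CPM + 1) values, as a description of 2 points. For Mir193a they were Mir181b-2 at 255 and 431 CPM, Mir3068 at 193 and 330 CPM and Mir301 at 295 and 379 CPM. For Mir193b they were Mir153, Mir330 and Mir128-1, with means of 86.0, 89.1 and 101 CPM. For Mir365-2 they were Mir598, Mir326 and Mir187, with means of 14.7, 17.0 and 15.6 CPM. For Mir365-1 they were Mir7039, Mir3098 and Gm25745, none above 11 reads in a library. Mir181b-2 and Mir128-1 have an arm identical to that of another gene, so their values are uncertain. In rank, Mir193a stood between Mir339 at 332 CPM and Mir497 at 304 CPM, and neither neighbour in rank was separated from it by more than the library spread.

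The 4 genes were then placed among miRNAs reported to hold back or to promote myogenic differentiation and miRNAs associated with brown fat. The brown fat list does not sort its genes by direction of action. Of 9 other genes reported to hold back myogenic differentiation or to keep myoblasts dividing, 7 were detected, with a median of 469 CPM over the list. Mir23a, reported to repress myosin heavy chain genes, led them at 26596 ± 3628 CPM, followed by Mir31, reported to repress Myf5, at 5419 ± 5545 CPM (SD, n = 2). The second place of Mir31 rested on replicate 1, at 9340 CPM, and in replicate 2 its 1498 CPM lay under the 1894 CPM of Mir221, which is reported to repress the cell-cycle inhibitor p27. By mean CPM Mir193a was above 3 of these 9, Mir125b-2, Mir133a-1 and Mir133a-2, and Mir193b was above the last 2. Mir125b-2 was under Mir193a in replicate 2, at 288 against 384 CPM. In replicate 1 it was higher, at 315 against 230 CPM. In this list 8 genes passed the library test, 7 of them higher in replicate 1. Over all genes 55.7% of the 415 tested passed and 30.4% were higher in replicate 1. Deeper counts let the test call smaller differences, and among the 240 genes with 100 or more reads 205 passed, 117 of them higher in replicate 1. The counts for this list and the next 2 are to be read against these shares, and nothing particular to the lists is read from them.

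Of 18 genes associated with brown fat, 15 were detected, with a median of 513 CPM over the list. By mean CPM Mir193a was above 8 of the 18. For Mir328, 1 of these 8, this order held in replicate 2, at 282 against 384 CPM. In replicate 1 Mir328 was higher, at 266 against 230 CPM. Mir378a, from an intron of Ppargc1b, led at 112998 ± 36038 CPM and Mir27b followed at 7874 ± 1086 CPM (SD, n = 2). In this list 14 passed the library test, with 9 at higher levels in replicate 1 and 5 in replicate 2. Of 20 genes reported to promote myogenic differentiation, 18 were detected, with a median of 424 CPM, led by Mir206 at 378817 ± 53707 CPM and Mir378a. There 15 passed the test, with 9 at higher levels in replicate 1 and 6 in replicate 2. On means over the 2 libraries, the medians of all 3 lists lay above each of the 4 genes. This order did not hold for Mir193a in replicate 2. There its 384 CPM was above the medians of the brown fat list, 301 CPM, and the promoting list, 380 CPM. It stayed under the 437 CPM of the list reported to hold back differentiation. Mir206 had 1481 and 1086 times the reads of Mir193a in replicates 1 and 2. These lists hold genes with identical copies or arms, among them the Mir133a, Mir125b, Mir1a, Mir24, Mir30c and Mir196a genes. The values of such genes are uncertain for the reason given for Mir365.

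**Figure D4:**
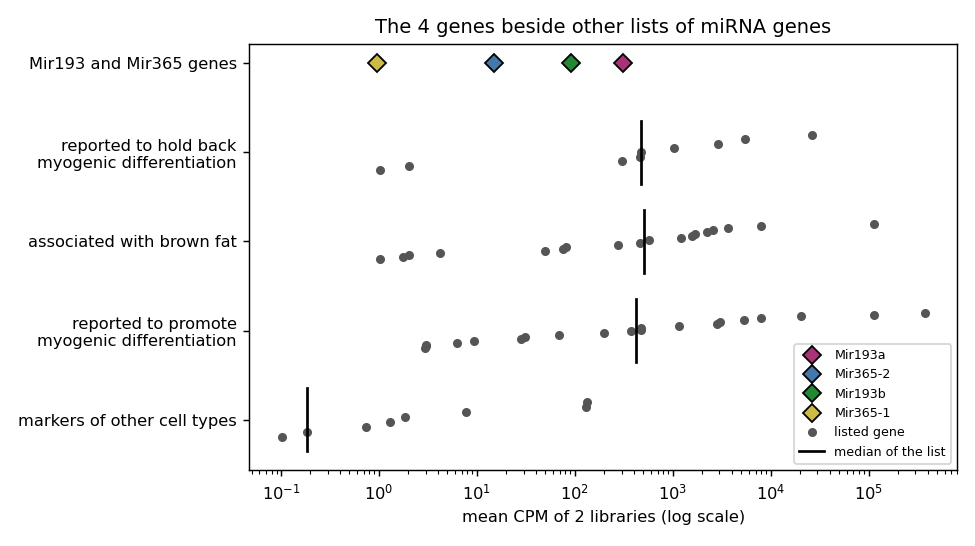
Mean CPM over 2 libraries on a log axis for the 4 genes (diamonds) and for 4 lists of miRNA genes (dots), with the median of each list as a black line. The 5 markers of other cell types with no read are left off the axis but counted in their median. On these means the 4 genes lie left of the medians of the first 3 lists, which are 469, 513 and 424 CPM. In replicate 2 alone, not drawn here, Mir193a at 384 CPM is above the brown fat and promoting medians, 301 and 380 CPM.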

How the data were processed

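The authors deposited raw counts of reads for each miRNA gene, on assembly mm10 with annotation M21 per the accompanying readme. The sources used here do not name the aligner, counter or trimming. Each table has 3 count columns (strand ignored, own strand, opposite strand) and summary lines for multimapping (22.01% and 17.9% of reads), unmapped (22.7% and 23.1%), no-feature (5.88% and 5.57%) and ambiguous reads, none of which names a gene and all of which stayed outside totals. Ambiguous reads were 4.83% and 8.05%, with strand ignored. All 2202 identifiers matched GENCODE M21. The nature of the own-strand column was read from the values.

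CPM were computed from 7581366 and 9865298 own-strand reads. Libraries were compared with an exact two-sided binomial test (scipy 1.17.1) on effective sizes from TMM in edgeR 4.0.16, adjusted over 415 genes with 10 or more reads at a threshold of 0.05. The quasi-likelihood test of edgeR needs a contrast and was not used. The code recovered known changes in counts simulated with counting error alone and tested on library totals. That checks the code and not the calls, since spread between libraries beyond counting error was not simulated. DESeq2 1.42.0 gave alternative size factors. Sequences came from RefSeq (GRCm38.p6). The text names every member, the 3 genes nearest to each, the neighbours of Mir193a in rank, genes sharing a seed and the 2 most abundant genes of each list. Mir126a, Mir142, Mir451a, Mir223, Mir221, Mir125b-2, Mir133a-1, Mir133a-2 and Mir328 were named after their values were seen. The members and lists were chosen with earlier results of these data known. The labels say that the libraries come from separate biosamples, and the spread between 2 libraries is all the error there is.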

Additional observations from a re-analysis of the deposited data

Results flagged for a closer look

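Some reads that the comparisons do not use exceeded 3, the upper limit for a count of 0. At Mir193a, 6 reads lay on the opposite strand in replicate 2. Multimapping reads, which hold no gene assignment, numbered 3378438 in replicate 1 and 3295854 in replicate 2. No search for an outlying library or a group difference was possible with 1 group of 2 libraries.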

How the results depend on the processing

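Of 83 values recomputed under another setting, 72 stayed the same by the rule set for their kind. Differences had to keep their direction and their side of the threshold. Levels and ratios had to move by less than the library spread, and counts of genes had to stay near the main count. Leaving out 1 library meets that rule for levels and ratios by construction, so those values are no support. No log2 difference of the 4 genes and no log2 ratio changed sign. With all reads as the denominator the means of Mir193a, Mir193b, Mir365-2 and Mir365-1 were 159, 47.1, 7.60 and 0.494 CPM, and without Mir206 in the total they were 504, 148, 23.8 and 1.56 CPM. With strand ignored Mir193b was at 105 CPM. These follow from the denominators, and the order of the 4 genes was the same in each. When every gene with a read was tested, the log2 difference of Mir365-2, -0.44, no longer passed, leaving 1 of the 4 genes that differed, because more genes entered the adjustment. DESeq2 size factors, library totals, the count that ignores strand and a minimum of 100 reads left the calls of the genes tested as they were, and Mir365-1 could not be tested at 100 reads. No paired analysis was possible because the series has 1 group. Mir365-1 is limited by depth, at 6 and 11 reads.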

Other observations

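The 2 clusters have upstream neighbours of the same kind, which the choice of genes did not use. In RefSeq the nearest tRNA gene upstream of Mir193a is n-TTcgt3, 7247 bases away, and the nearest upstream of Mir193b is n-TTcgt5, 12128 bases away. Both are threonine tRNA genes of the same anticodon by their symbols, of which RefSeq lists 4 among 430 tRNA genes. Chromosome 11 has 52 tRNA genes in all and chromosome 16 has 2. On chromosome 11 the tRNA lies within the span of Gm11205, a long intergenic non-coding RNA gene on the plus strand. Reads of these tRNA genes were not analysed here. This position was noticed after the annotation was examined and was not tested.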
